A study of Mus musculus with 20 samples.

Results

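Collagens and the other genes of the extracellular matrix were examined in mouse gastrocnemius, the large muscle of the calf, after injection of JA16, an antibody that binds myostatin, or of saline. The set was a list of 52 symbols that covers the collagen chains of fibrils, basement membrane and microfibrils, elastic fibre genes, matrix glycoproteins, small proteoglycans, the enzymes that build and crosslink collagen, and a few genes of matrix turnover. The rule names the genes and uses no measured value, though the list was drawn up with earlier results of these data known. A probe set that the array annotation assigns to a single gene was found for 50 of the 52, and the brightest such probe set stood for each gene. Fbn1 and Loxl2 had no such probe set and were not analysed here. Of the 50, 48 passed the filter on dim probe sets (a mean log2 intensity of at least 5.65 over the 20 samples), out of 11200 genes tested in all, while Fbn2 and Plod2 did not.

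There were 10 JA16 samples and 10 saline samples. JA16 was injected into the peritoneum at 0.12 mg per g body weight on day 1 and 0.09 mg per g on day 3, control mice received saline on the same days, and muscle was taken on day 5. The labels state no strain, sex or age and do not say whether each sample is a separate mouse, so the p-values measure the spread between these samples. The labels number the samples of both groups from 1 to 10, and same-numbered samples were compared as pairs.

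Myostatin is a secreted member of the TGF-beta family that muscle fibres make and that limits muscle growth. It binds activin type II receptors and acts through Smad2 and Smad3, transcription factors that also carry the TGF-beta signal, and TGF-beta is a known inducer of collagen and fibronectin genes in fibroblasts. In skeletal muscle, fibroblasts make most of the fibrillar collagen that lies between fibres, while fibres, endothelium and fibroblasts together make the basement membrane. Whether blocking myostatin lowers or raises matrix transcripts within days is the question that these samples bear on.

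The values are MAS5 intensities, linear array signals that had been scaled to an equal trimmed mean on every array, with array medians from 38.9 to 77.1. Levels of different probe sets cannot be set against each other, so each gene is compared only with itself. Saline sample 7 stood apart from the other saline samples over the matrix genes, and its array had the highest median. Its mean log2 intensity over the 48 genes was 11.17, against 9.75 to 10.38 in the other 9 saline samples and 9.58 to 10.50 in the JA16 samples. It was the highest saline sample for 29 of the 48 genes, or 60.4%, against 21.3% of all genes tested, and the lowest for 1 of the 48, against 20.3%. For 20 of the 48, or 41.7%, it lay at least 1 log2 unit above the median of the other saline samples, against 12.7% of all genes. The rule for the list, drawn up with earlier results of these data known, already asked for values with and without saline sample 7. In the paired fit, leaving that sample out leaves out pair 7. The main counts and the genes described in full below are therefore given with all 10 pairs and without pair 7.

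**Figure D1:**
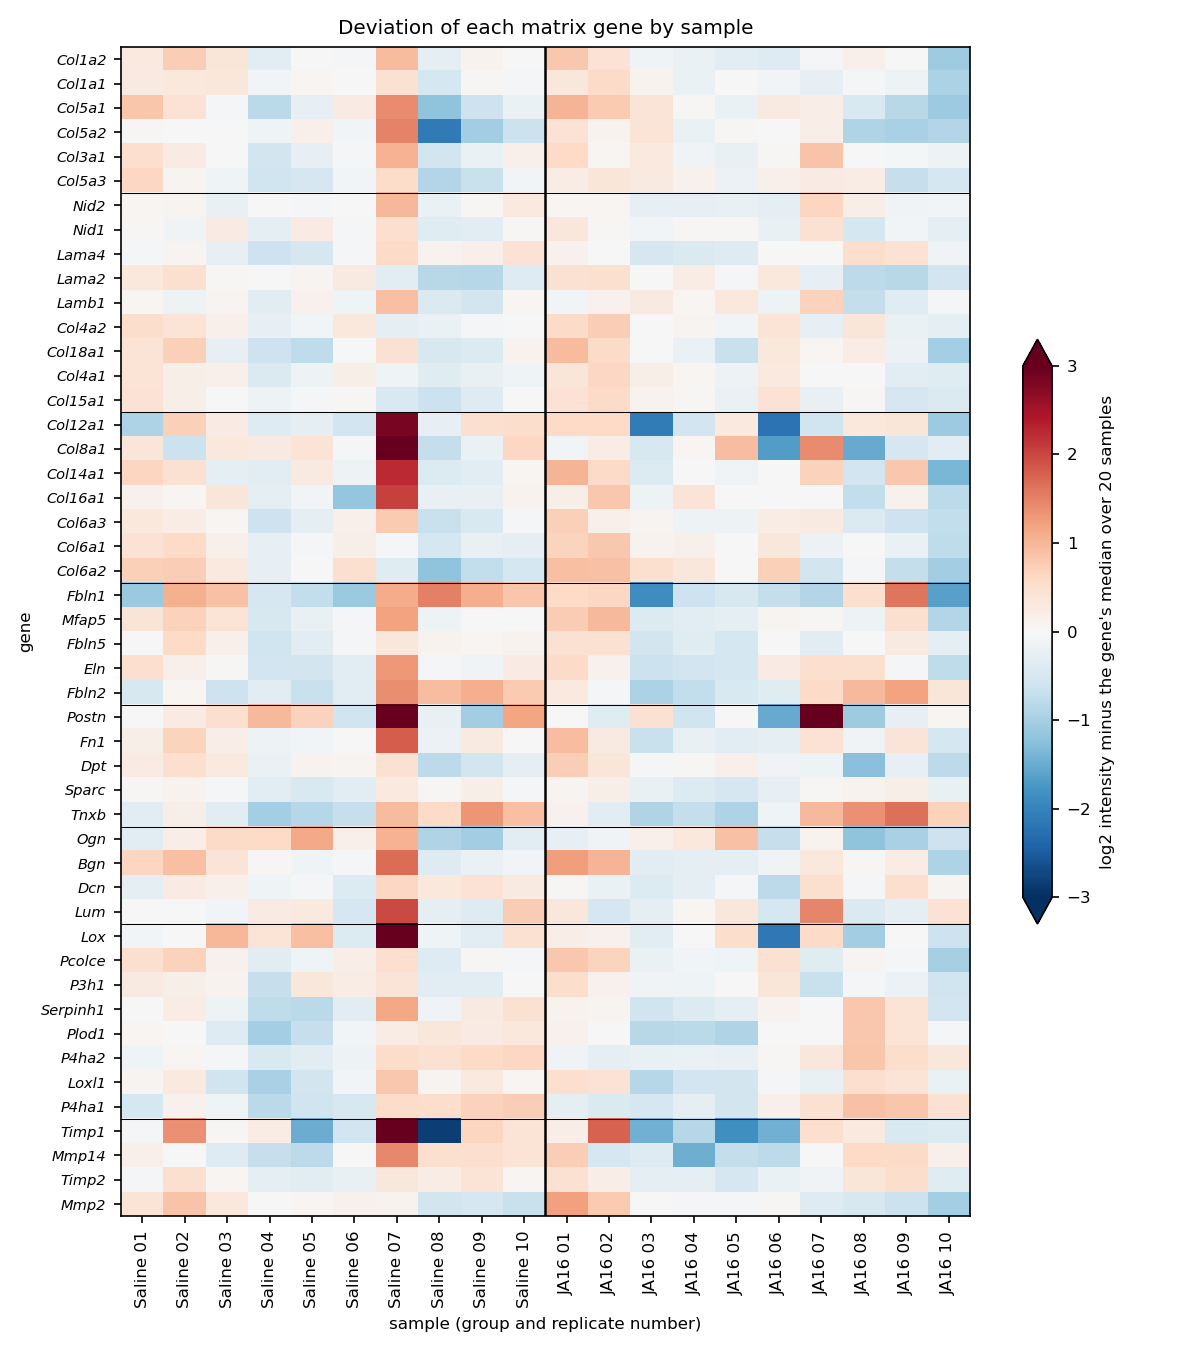
Heat map of the 48 matrix genes (rows, grouped by role) in the 20 samples (columns, saline left of the black line and JA16 right), coloured by log2 intensity minus the gene's median over all samples, with colours saturated beyond 3 log2 units. The column of saline sample 7 is red for most genes, with Postn, Timp1, Lox, Col8a1 and Col12a1 each more than 3 log2 units above the median of the other saline samples, and the column of JA16 sample 10 is blue for most genes.

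None of the 48 matrix genes differed between JA16 and saline past the threshold (limma, adjusted p under 0.05 over 11200 genes), where 31 of all genes tested, or 0.277%, did. Most differences were small: the median over the 48 genes was -0.089 on the log2 scale, beside -0.016 over all genes tested, and 34 of the 48 (70.8%, against 54.2% of all genes) had a lower value in JA16. Of the 31 genes called over the array, 17 (0.152% of those tested) were higher and 14 (0.125%) lower. These counts moved with the scaling of the arrays: with the array medians set equal, 25 of the 48 had a lower value (38.7% of all genes did), the median was -0.020 (0.054 over all genes), and 3 genes called over the array were higher and 7 lower. With quantile normalization 31 of the 48 were lower (48.8% of all genes), the median was -0.061, and 18 genes called were higher and 11 lower. The 95% interval of the difference lay within 0.5 log2 units of 0 on both sides for 35 of the 48 genes and within 1 for 42. Without pair 7 the median was -0.011 and 26 of the 48 were lower, against 51.8% of all genes. With saline sample 7 alone left out and no pairing, the median was 0.015 and 22 of the 48 were lower. In the paired fit without pair 7 no matrix gene passed the threshold, where 14 genes (0.125%) did. In the fit that ignores the pair numbers no matrix gene passed, where 4 genes (0.0357%) did, and the smallest adjusted p of a matrix gene in the paired limma fit was 0.133.

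At an unadjusted p under 0.05, 5 of the 48 genes (10.4%) were lower in JA16 and none was higher, against 8.76% of all genes lower and 7.49% higher. These were Ogn, Postn, Lox, Dcn and Col8a1. The share of both directions together was thus below the background of 16.2%. Without pair 7, 4 of the 48 (8.33%) reached that level, all of them lower, against 14.5% of all genes, of which 8.39% lower and 6.08% higher. In the fit without pairing 0 of 48 did, against 2.65%.

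**Figure D2:**
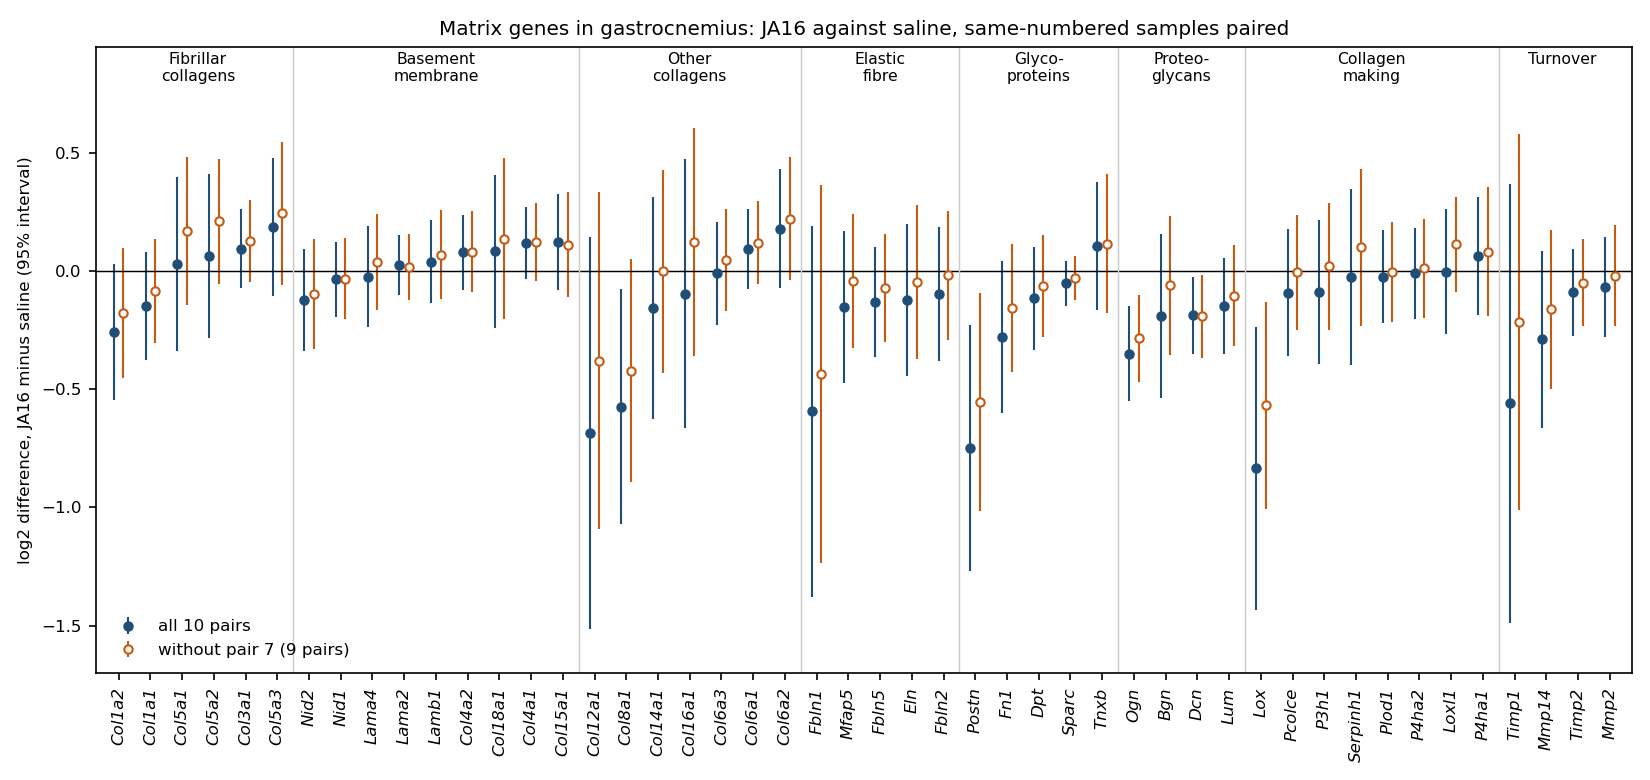
Log2 difference of JA16 minus saline (vertical axis) for each of the 48 matrix genes (horizontal axis, grouped by role and ordered within a role), as points with 95% intervals from limma, for all 10 pairs (filled) and without pair 7 (open). The intervals of Ogn, Postn, Lox, Dcn and Col8a1 lie below 0 with all pairs, and most open points lie above their filled partners, as 45 of the 48 values are higher without pair 7. No share over all genes was taken for that count.

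Promoter sequence from RefSeq (build GRCm38.p6) was used for 35 of the 52 listed genes, in 41 windows of the 250 bases before a listed transcription start. Windows of listed genes on 1 chromosome were left out, while the shares over all windows were taken without that step. Of the 5 genes with an unadjusted p under 0.05, windows of Ogn, Postn and Col8a1 are shown as examples, and none of Lox or Dcn. A motif of the Smad pathway was searched in each window. Capitals mark CAGAC, the core that Smad3 and Smad4 bind, searched on both strands, and TATAAA, the TATA box, searched on the strand of the gene. Postn has 2 listed starts, and the window of the downstream start is shown.
Ogn, chr13:49607765-49608014, plus strand: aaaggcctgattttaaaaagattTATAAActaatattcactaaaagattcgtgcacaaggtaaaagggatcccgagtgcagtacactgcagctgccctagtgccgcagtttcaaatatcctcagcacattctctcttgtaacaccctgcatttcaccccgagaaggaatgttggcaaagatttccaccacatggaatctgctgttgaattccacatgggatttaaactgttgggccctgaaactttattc
Postn, chr3:54360857-54361106, plus strand: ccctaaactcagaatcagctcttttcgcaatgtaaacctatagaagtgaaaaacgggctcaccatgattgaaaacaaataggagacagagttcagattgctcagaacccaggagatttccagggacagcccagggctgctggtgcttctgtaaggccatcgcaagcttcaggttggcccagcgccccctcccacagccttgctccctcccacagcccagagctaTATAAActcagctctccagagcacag
Col8a1, chr16:57754738-57754987, minus strand: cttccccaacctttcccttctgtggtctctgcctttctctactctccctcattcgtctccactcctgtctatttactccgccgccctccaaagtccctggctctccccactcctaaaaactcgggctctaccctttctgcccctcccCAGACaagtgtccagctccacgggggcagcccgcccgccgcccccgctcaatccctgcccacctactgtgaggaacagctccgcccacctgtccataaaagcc
In the Postn window TATAAA begins 26 bases before the start, the usual place of a TATA box, and in the Ogn window 227 bases before it. Col8a1 has 1 match to CAGAC, and the windows of Ogn and Postn shown here have none, while the window of the upstream Postn start, which is not shown, has 1. CAGAC was found in 43.9% of the matrix gene windows and in 42.2% of all 32851 windows. CCAAT, searched on both strands, was in 34.1% and 33.8%, and TATAAA in 7.32% and 7.59%. These short motifs were thus about as frequent before matrix genes as before genes in general, and a match describes letters, not binding.

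Fibrillar collagens form the tension-bearing cables of the tissue. None of the 6 measured chains passed the test, with 2 lower and 4 higher in JA16 and a median log2 difference of 0.047 (0.15 without pair 7). Probe sets of the same gene disagreed in direction for 3 of the 4 higher chains, Col3a1, Col5a1 and Col5a2. Col1a1, the major chain of type I collagen, had intensities from 4605.5 to 9120.7 in saline (median 6900.8) and from 3429.1 to 9834.8 in JA16 (median 6314.3). The groups overlapped over most of their range, with saline sample 7 highest among saline samples and JA16 sample 10 lowest of all. The log2 difference was -0.15 (SE 0.11, limma adjusted p = 0.505), and -0.085 without pair 7. Col1a2, the partner chain in the same triple helix, ran from 4934.8 to 11842 in saline (median 6446.2) and from 2936.8 to 10847 in JA16 (median 5838.4), a difference of -0.26 (SE 0.14, limma adjusted p = 0.356) that was -0.18 without pair 7. Both type I chains had the same sign in 8 of 10 pairs.

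Col3a1, the chain of type III collagen, is laid down with type I in the connective tissue of muscle. It ran from 4737.5 to 14373 in saline (median 6878.6) and from 5962.6 to 12557 in JA16 (median 7134), with both samples of pair 7 at the top of their groups. The difference was 0.096 (SE 0.079, limma adjusted p = 0.555), and 0.13 without pair 7. Only 1 of its 2 probe sets had this direction, and with probe sets that can match several transcripts left out the value was -0.084, so no direction is given for Col3a1. The type V chains Col5a1 and Col5a2, which join type I fibrils and set their width, differed by 0.032 (SE 0.17) and 0.063 (SE 0.16), and by 0.17 and 0.21 without pair 7. Col5a3, a minor type V chain, had the largest positive value of the 48 genes, 0.19 (SE 0.14, limma adjusted p = 0.499), and 0.25 without pair 7. Its intensity was 518.4 to 1477.5 in saline (median 894.9) and 594.4 to 1231.5 in JA16 (median 1094), and the groups overlapped.

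Basement membrane genes encode the sheet that wraps each fibre and each capillary. Of the 9 measured, 3 were lower and 6 higher in JA16 (1 lower and 8 higher with array medians set equal), none passed the test, and all 9 differences lay between -0.12 and 0.12, with a median of 0.042. Col4a1, a chain of the type IV collagen network, ran from 3788.5 to 6786.6 in saline (median 4693) and from 3990.4 to 7904.8 in JA16 (median 5250.8), a log2 difference of 0.12 (SE 0.072, limma adjusted p = 0.413). Its neighbour and partner chain Col4a2 differed by 0.080 (SE 0.075) and had the same sign as Col4a1 in 8 of 10 pairs. Both were nearly the same without pair 7, with 0.12 for Col4a1 and 0.083 for Col4a2. Col15a1, a basement membrane collagen of muscle and vessels, ran from 903.1 to 1905.2 in saline (median 1379.6) and from 989 to 2099.7 in JA16 (median 1450.5), and its difference was 0.12 (SE 0.096, limma adjusted p = 0.527), and 0.11 without pair 7. Col18a1, the parent of endostatin, differed by 0.084 (SE 0.15).

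Laminins and nidogens, which bind fibres to that network, were nearly level between the groups. Lama2, the laminin chain lost in a congenital muscular dystrophy, differed by 0.026 (SE 0.060) and its 95% interval ran from -0.10 to 0.15. Lama4, a laminin chain of vessels and nerve, ran from 791.6 to 1802 in saline (median 1227.3) and from 850.3 to 1749.7 in JA16 (median 1210.1). It differed by -0.022 (SE 0.0996, limma adjusted p = 0.940), and by 0.039 without pair 7, where its sign turned. Lamb1, Nid1 and Nid2 differed by 0.042 (SE 0.083), -0.034 (SE 0.074) and -0.12 (SE 0.10). For Lamb1 only 1 of 3 probe sets had this direction, and for Nid2 JA16 was lower in 8 of 10 pairs.

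Collagens of microfibrils, networks and fibril surfaces split by type. Of the 7 measured, 5 were lower and 2 higher (4 lower with array medians set equal), with a median of -0.094 (0.049 without pair 7). The type VI chains, whose beaded microfibrils link the basement membrane to the interstitium, were close to 0 or above it. Col6a1 ran from 3562.5 to 7677.8 in saline (median 4937.5) and from 3013.8 to 8874.2 in JA16 (median 5303.1), a difference of 0.095 (SE 0.079, limma adjusted p = 0.559), and 0.12 without pair 7. Col6a2 ran from 2069.2 to 8012.3 in saline (median 4381) and from 2311.5 to 8908.7 in JA16 (median 5466.2), and its difference was 0.18 (SE 0.12, limma adjusted p = 0.445), and 0.22 without pair 7. JA16 was higher for Col6a2 in 8 of 10 pairs, and the lowest saline value was that of sample 8. These neighbouring genes had the same sign in 9 of 10 pairs. Col6a3, which lies on another chromosome, ran from 1376.2 to 3779.1 in saline (median 2189.7) and from 1315.1 to 3593.4 in JA16 (median 2147.7), a difference of -0.0083 (SE 0.10, limma adjusted p = 0.981) that was 0.049 without pair 7.

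The network and fibril-associated chains were the collagens in which saline sample 7 stood highest above the rest. Col8a1, a short-chain network collagen of vessels, read 1613.7 in that sample and 95.5 to 241.0 in the other saline samples, with a saline median of 190.65. In JA16 it ran from 49 to 420 with a median of 135.5, and the highest JA16 value was sample 7 too. Its difference was -0.57 (SE 0.23, limma p = 0.0274, adjusted p = 0.256), lower in 8 of 10 pairs, and -0.42 without pair 7 (limma p = 0.0779, adjusted p = 0.398). With saline sample 7 alone left out and no pairing it was -0.24. Col12a1, a collagen of tendon and fascia that coats type I fibrils, read 1026.8 in saline sample 7 and at most 235.3 in the others. Its saline range of 75.8 to 1026.8 (median 145.55) covered the JA16 range of 31 to 218.2 (median 136.1) except at the bottom. The difference was -0.68 (SE 0.39, limma adjusted p = 0.390), and -0.38 without pair 7.

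Col14a1 and Col16a1, which also associate with fibrils, changed sign when pair 7 was left out. Col14a1 ran from 140.5 to 884.4 in saline (median 181.1) and from 71.9 to 376.3 in JA16 (median 186.45), and differed by -0.15 (SE 0.22, limma adjusted p = 0.758) with all pairs and by 0.00059 without pair 7. Col16a1 ran from 31.6 to 289.5 in saline (median 70) and from 40.9 to 122.8 in JA16 (median 70.3), and differed by -0.094 (SE 0.27, limma adjusted p = 0.897) with all pairs and by 0.12 without it. The highest saline value of both was sample 7, with the next at 293.1 and 90.1.

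Elastic fibre genes were lower in JA16 for all 5 measured of the 7 listed, with none past the test, a median of -0.13, and -0.045 without pair 7. Fbln1, a fibulin that binds elastin and fibronectin, had the largest value of these 5: intensities ran from 83.3 to 514.8 in saline (median 328.75) and from 49.5 to 549.3 in JA16 (median 123.85). The medians were far apart while the ranges were nearly the same, and JA16 was lower in 6 of 10 pairs. Its difference was -0.59 (SE 0.37, limma adjusted p = 0.428), and -0.44 without pair 7. Eln, elastin itself, differed by -0.12 (SE 0.15), Mfap5, a protein of microfibrils, by -0.15 (SE 0.15), Fbln5, which guides elastin assembly, by -0.13 (SE 0.11), and Fbln2 by -0.097 (SE 0.13). Each was closer to 0 without pair 7, at -0.045 for Eln, -0.040 for Mfap5, -0.071 for Fbln5 and -0.017 for Fbln2. Fbn2, a fibrillin, lay below the intensity filter and was not tested: its values were 23.2 to 120.9 in saline (median 47.55) and 8 to 80.8 in JA16 (median 27.9), and its log2 difference was -0.93 (SE 0.33), given as a description. Its highest saline value was again sample 7.

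Matrix glycoproteins bind cells to collagen and tune its assembly. Of the 5 measured, 4 had a lower value in JA16 (3 with array medians set equal), and none passed the test. Periostin (Postn), a secreted protein of wounds, tendon and activated fibroblasts, had the widest spread of the 48 genes in saline. Its intensity in saline was 123.6, 149.2, 173.5, 246.8, 200.7 and 83.2 in samples 1 to 6, 8497.8 in sample 7, and 107.9, 60.7 and 282.4 in samples 8 to 10. In JA16 it was 126.1, 97.0, 170.7, 82.0, 124.1 and 44.0 in samples 1 to 6, 1514.1 in sample 7, and 59.7, 105.9 and 130.6 in samples 8 to 10. Both samples numbered 7 were far above the rest of their group, and the other values overlapped, with JA16 lower in 8 of 10 pairs. The difference was -0.75 (SE 0.24, limma p = 0.00804, adjusted p = 0.192), and -0.55 without pair 7 (SE 0.22, limma p = 0.0218, adjusted p = 0.288). Without pairing the SE was 0.69 (limma p = 0.292), and with saline sample 7 alone left out of that fit, so that the high JA16 sample 7 stayed in, the difference was -0.16.

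Fn1, fibronectin, the scaffold on which collagen is first laid down, ran from 1935.5 to 7610.1 in saline (median 2325.9) and from 1377.3 to 4143.8 in JA16 (median 1943.4). Saline sample 7 was highest and the next saline value was 3459.1, within the JA16 range. The difference was -0.28 (SE 0.15, limma adjusted p = 0.365), lower in 7 of 10 pairs, -0.16 without pair 7, and -0.11 with saline sample 7 alone left out and no pairing. Sparc, a collagen-binding protein, was the most tightly measured of the 48 genes: it ran from 8428.3 to 14070 in saline (median 11507) and from 8127.1 to 13024 in JA16 (median 10778). Its difference was -0.051 (SE 0.044, limma adjusted p = 0.575), with a 95% interval from -0.15 to 0.043, and it was -0.028 without pair 7. Tnxb, tenascin-X, a matrix protein of connective tissue, ran from 457.1 to 2354.8 in saline (median 902.65) and from 492.9 to 2917.8 in JA16 (median 937), a difference of 0.11 (SE 0.13, limma adjusted p = 0.698), and 0.12 without pair 7. Sample 9 was the highest of both groups. Dpt, dermatopontin, differed by -0.11 (SE 0.10).

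Small leucine-rich proteoglycans sit on collagen fibrils and limit their thickness, and decorin and biglycan also bind TGF-beta. The 4 measured all had a lower value in JA16, under each of the 3 scalings tried, with none past the test and a median log2 difference of -0.19 (-0.15 without pair 7). Osteoglycin (Ogn), named here because its p was the smallest of the 48 after its values were seen, read 1716.8, 2469.5, 3200.9, 3259.2, 4753.0, 2378.5, 4417.8, 1148.6, 1047.5 and 1690.9 in saline samples 1 to 10. In JA16 it read 1818.8, 2001.7, 2391.0, 2685.0, 3965.3, 1340.6, 2305.6, 928.6, 1086.3 and 1388.7. The groups overlapped almost wholly, but same-numbered samples were high or low together and JA16 was lower in 8 of 10 pairs, all but pairs 1 and 9. The difference was -0.35 (SE 0.094, limma p = 0.00211, adjusted p = 0.133), and -0.28 without pair 7 (SE 0.086, limma p = 0.00517, adjusted p = 0.226). Without pairing the SE was 0.29 (limma p = 0.240).

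Decorin (Dcn) ran from 4654.3 to 9632.6 in saline (median 7134.5) and from 3606 to 8875 in JA16 (median 5951.5), and JA16 was lower in 8 of 10 pairs. Its difference of -0.19 (SE 0.076, limma p = 0.0274, adjusted p = 0.256) was also -0.19 without pair 7 (SE 0.082, limma p = 0.0355, adjusted p = 0.321). It was -0.13 with saline sample 7 alone left out and no pairing. Bgn, biglycan, and Lum, lumican, differed by -0.19 (SE 0.16) and -0.14 (SE 0.095), by -0.060 and -0.10 without pair 7, and by -0.034 and 0.053 with saline sample 7 alone left out and no pairing. These genes have close neighbours of the same family, which were looked at after the values were seen. On chromosome 10, Dcn, Lum, Kera and Epyc follow each other with no other protein-coding gene between them, and Kera, keratocan, differed by -0.88 (SE 0.34, limma p = 0.0199, adjusted p = 0.239). On chromosome 13, Ecm2, Aspn, Omd and Ogn do the same. There, Omd, osteomodulin, differed by -0.64 (SE 0.25, limma p = 0.0233, adjusted p = 0.246) and Aspn, asporin, by -0.36 (SE 0.22, limma p = 0.132, adjusted p = 0.432), with JA16 lower in only 4 of 10 pairs. Without pair 7 the values were -0.77 for Kera, -0.47 for Omd and -0.19 for Aspn. Epyc and Ecm2 were not among the genes tested.

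**Figure D3:**
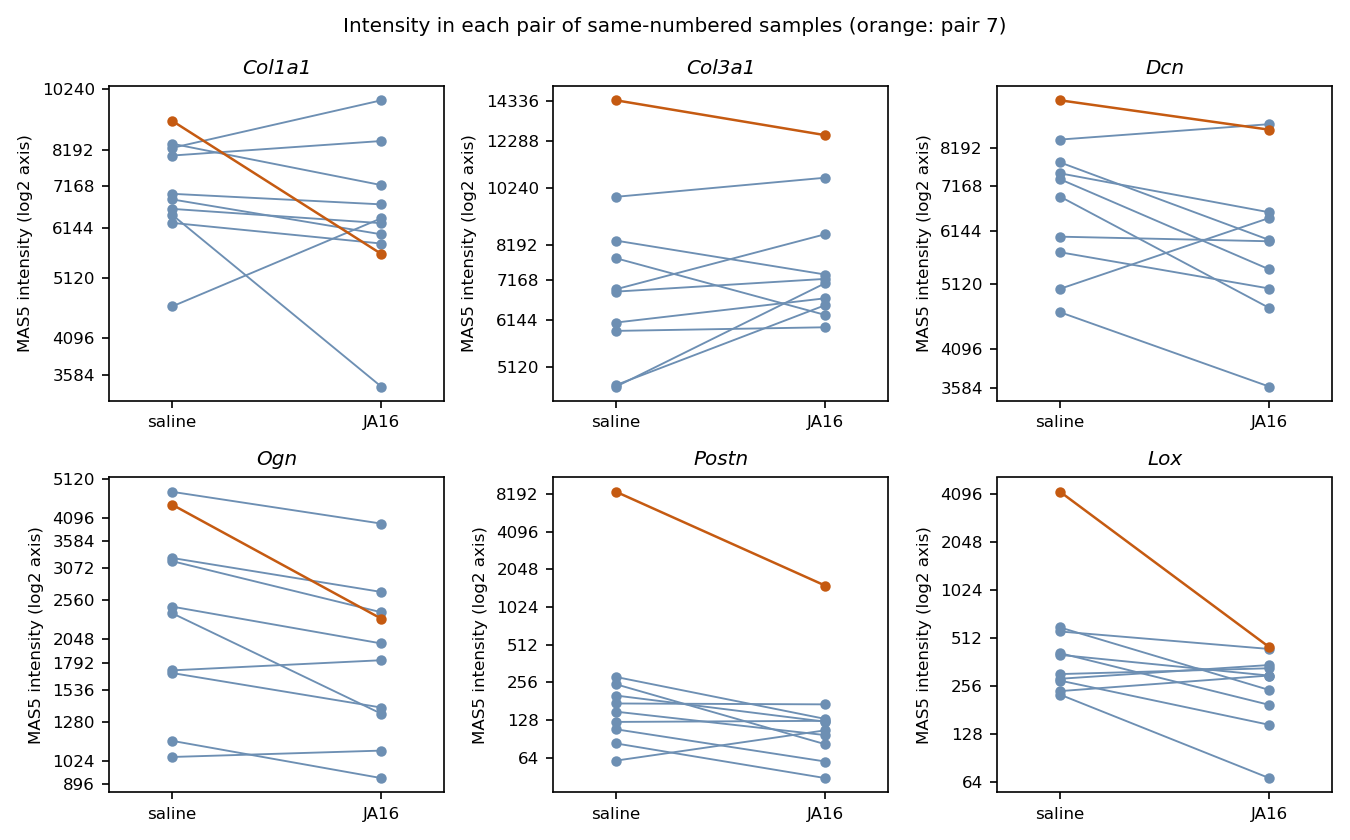
MAS5 intensity (log2 axis, with its own range in each panel) of Col1a1, Col3a1, Dcn, Ogn, Postn and Lox in saline and JA16, with a line joining the samples of each pair and pair 7 in orange. Ogn and Dcn slope down in 8 of 10 pairs within overlapping ranges, and saline sample 7 stands far above the rest for Postn (8497.8) and Lox (4247.7).

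Genes that make collagen act in the secretory pathway and, once it is secreted, by cutting and crosslinking it. Of the 8 measured of 10 listed, 7 had a lower value in JA16, but the median was only -0.024 (0.016 without pair 7) and none passed the test. With quantile normalization 4 of the 8 were lower, and with array medians set equal 3 were, with a median of 0.045. Lox, lysyl oxidase, which crosslinks collagen and elastin, had the largest negative value of the 48 genes. Saline samples 1 to 10 read 285.5, 305.5, 598.9, 402.9, 565.1, 227.0, 4247.7, 278.0, 238.9 and 413.3. JA16 samples read 348.1, 332.2, 242.7, 298.8, 439.0, 68.0, 450.7, 146.8, 299.2 and 195.8. Saline sample 7 was far above the next saline value, and apart from it the ranges overlapped, with JA16 lower in 7 of 10 pairs. The difference was -0.83 (SE 0.28, limma p = 0.00951, adjusted p = 0.198), and -0.57 without pair 7 (SE 0.20, limma p = 0.0147, adjusted p = 0.270). With saline sample 7 alone left out and no pairing it was -0.47.

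The other genes of collagen assembly were close to level, and 4 of them turned sign without pair 7. Serpinh1, the collagen chaperone HSP47, ran from 996 to 3873.4 in saline (median 1681.6) and from 1144 to 3050.4 in JA16 (median 1796.4), a difference of -0.024 (SE 0.17, limma adjusted p = 0.964) and 0.10 without pair 7. Loxl1, a relative of Lox that acts on elastin, ran from 481.7 to 1651.3 in saline (median 986.35) and from 524 to 1345.4 in JA16 (median 861.6). It differed by -0.0017 (SE 0.12, limma adjusted p = 0.997) and by 0.11 without pair 7, and only 1 of its 2 probe sets had the direction given. P4ha2, a subunit of prolyl 4-hydroxylase, which stabilises the collagen helix, ran from 351.1 to 747.8 in saline (median 484.45) and from 402.5 to 866.7 in JA16 (median 475.85), and its difference was -0.0088 (SE 0.090, limma adjusted p = 0.976) and 0.012 without pair 7. P3h1, a prolyl 3-hydroxylase, ran from 187.8 to 396.4 in saline (median 332.05) and from 189 to 436.8 in JA16 (median 286.2), a difference of -0.088 (SE 0.14, limma adjusted p = 0.790) and 0.021 without pair 7. In each of these 4 genes the value moved by less than its SE. P4ha1, the other prolyl 4-hydroxylase subunit listed, differed by 0.067 (SE 0.12), Plod1, a lysyl hydroxylase, by -0.023 (SE 0.092), and Pcolce, which speeds removal of the procollagen tail, by -0.092 (SE 0.13). Without pair 7 these were 0.084, -0.0029 and -0.0049. Plod2, the lysyl hydroxylase of collagen telopeptides, was below the filter, with values of 30.6 to 328 in saline (median 49.15) and 25.4 to 72.5 in JA16 (median 43.35). Its highest saline value was sample 7.

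Genes of matrix turnover, 2 metalloproteinases and 2 of their inhibitors, all had a lower value in JA16, none passed the test, and the median of these 4 was -0.19 (-0.10 without pair 7). With array medians set equal Mmp2 turned to 0.0043 and 3 of the 4 were lower. Timp1, an inhibitor that rises in injured tissue, ran from 18.9 to 2430.4 in saline (median 147.15), with sample 7 at the top and the next value at 349.8. It ran from 37.8 to 456.3 in JA16 (median 99.6), and all saline values but sample 7 and the lowest, sample 8, lay within that range. The difference was -0.56 (SE 0.44, limma adjusted p = 0.534), -0.21 without pair 7, and -0.12 with saline sample 7 alone left out and no pairing. Mmp2, gelatinase A, ran from 1502.6 to 4298.9 in saline (median 2525.2) and from 1182.6 to 5580.2 in JA16 (median 2327.3). Its difference was -0.065 (SE 0.099, limma adjusted p = 0.776) although JA16 was lower in 8 of 10 pairs, and it was -0.019 without pair 7. Mmp14, the membrane protease that activates Mmp2, differed by -0.29 (SE 0.17), and Timp2, its partner in that step, by -0.089 (SE 0.086). Without pair 7 these were -0.16 and -0.048.

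The side of 0 on which most matrix genes lay differed from pair to pair, and in pairs 2, 4, 5 and 6 they were split more evenly. In pair 10 all 48 had a lower value in JA16 (median -0.46). In pair 7, 43 were lower (median -0.63), and in pair 3, 38 were lower (median -0.28). By contrast, in pair 1 only 5 were lower (median 0.26), in pair 8, 14 (median 0.37), and in pair 9, 15 (median 0.099). Pairs 2, 4, 5 and 6 had 27, 20, 25 and 19 lower genes and medians of -0.021, 0.19, -0.0050 and 0.063. The median over all genes tested stayed between -0.033 and 0.028 in every pair, so these swings were not shared by the array as a whole. No matrix gene was lower in JA16 in 9 or more pairs, and none was higher in 9 or more, against 3.48% and 3.29% of all genes.

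**Figure D4:**
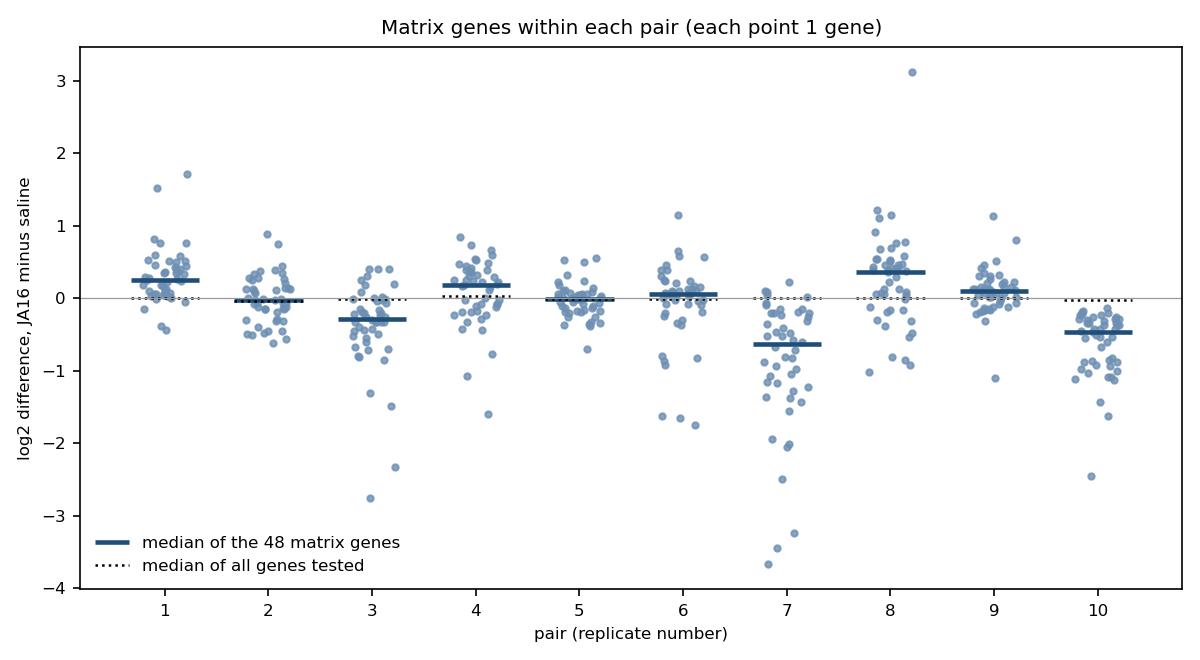
Log2 difference of JA16 minus saline (vertical axis) within each pair (horizontal axis), 1 point for each of the 48 matrix genes, with their median (solid bar) and the median of all genes tested (dotted bar). The matrix medians run from -0.63 in pair 7 to 0.37 in pair 8, while the dotted bars stay near 0.

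Single samples were at the end of their group for many of the genes. JA16 sample 10 was the lowest JA16 sample for 16 of the 48 genes, against 9.27% of all genes, and JA16 sample 1 was the highest for 18, against 16.4%. JA16 sample 7 was the highest JA16 sample for 8 genes, among them Postn, Lum, Nid2, Col3a1 and Lox. Pair 7 was the lowest pair for 24 of the 48 genes. The counts for JA16 sample 7 and for pair 7 were not set against a share over all genes. Over all genes, saline sample 7 was the highest saline sample for 21.3% and the lowest for 20.3%. Saline sample 7 exceeded the median of the other saline samples by 5.83 log2 units for Postn, 4.14 for Timp1, 3.80 for Lox, 3.10 for Col8a1, 3.07 for Col12a1, 2.40 for Col14a1 and 2.11 for Col16a1. The same excess was 0.0045 for Col4a1 and 0.042 for Col6a1, and it was negative for Col4a2 (-0.30), Col6a2 (-0.34), Lama2 (-0.36) and Col15a1 (-0.43). The excess was therefore uneven over the matrix, large for periostin, Timp1, Lox and the network and fibril-associated collagens, and near 0 or below it for type IV and most type VI chains and the muscle laminin.

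Markers of the cells that the muscle samples could hold are given beside these values, and none of their genes passed the test. Sums of intensities are decided by the brightest probe sets, so the mean log2 intensity of each list, in which every gene counts equally, was added after the sums were seen. The summed intensity of 12 macrophage and leukocyte markers was 51259 in saline sample 7, against 13509 to 35499 in the other saline samples and 12012 to 48824 in JA16. Their mean log2 intensity was 11.60 there, against 9.31 to 10.33 and 9.20 to 10.96, and sample 7 was the highest saline sample for 10 of the 12. The 3 measured of 6 myofibroblast markers summed to 8429.7 in saline sample 7, against 3731.1 to 5829.5 in the other saline samples. Sample 7 was the highest saline sample for only 1 of these 3, Tnc, tenascin-C, itself a matrix gene. Tnc read 2970.8 there and at most 270.0 in the other saline samples. Acta2 read 3818.6 there, within the 2645.5 to 4370.7 of the other saline samples. Tagln read 1640.3, within their 783.3 to 1882, so the higher sum came from Tnc.

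For the 16 measured of 18 fibroblast markers the sum and the mean differed. The sum was 37187 in saline sample 7, within the 33028 to 42924 of the other saline samples, and 27358 to 43927 in JA16. Without Gsn, the brightest of the list and lowest in sample 7, it was 24814, against 17903 to 24480 in the other saline samples. Gsn was left out after its values were seen, which by itself raises the place of sample 7. The mean log2 intensity was 10.27 in saline sample 7, against 9.68 to 10.19 in the others and 9.49 to 10.20 in JA16, and sample 7 was the highest saline sample for 5 of the 16. Fap, a protease of activated fibroblasts, read 1206.6 there and at most 538.8 in the other saline samples. Between the groups, 12 of the 16 had a lower value in JA16 (median log2 difference -0.17), beside 54.2% of all genes.

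Markers of fibres and nerve had their lowest saline sums in that sample. The 8 muscle fibre markers summed to 130920 in saline sample 7, the lowest of the saline samples, against 134370 to 166760 in the others and 132930 to 190240 in JA16. Their mean log2 intensity there was 13.978, against 14.026 to 14.337 in the other saline samples and 13.975 to 14.516 in JA16. Saline sample 7 was the lowest saline sample for 2 of the 8. Nerve and Schwann cell markers, 6 measured, summed to 9222.1 there, against 10026 to 18784 in the other saline samples and 6529.4 to 18250 in JA16. Their mean log2 intensity there was 8.76, against 8.99 to 10.17 in the other saline samples and 8.17 to 9.90 in JA16. The part of these cells in the values of the matrix genes was not tested, and in RNA from whole muscle fewer cells of a type cannot be told from less RNA per cell.

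Tendon markers had lower values in JA16 for each of the 10 genes under each of the 3 scalings (median log2 difference -0.77 as deposited), and for 9 of the 10 without pair 7 (median -0.66), and none passed the test. Their sums ran from 14211 to 32280 in saline and from 5422.9 to 31677 in JA16, and saline sample 7, at 22093, was not the highest. Its mean log2 intensity for these markers, 9.74, lay at the top of the 8.03 to 9.75 of the other saline samples. Tnmd, tenomodulin, a defining gene of tendon cells, ran from 292.6 to 1362.9 in saline and from 61.2 to 1914.1 in JA16, a difference of -0.99 (SE 0.42, limma adjusted p = 0.277). Scx, the transcription factor of tendon, differed by -0.25 (SE 0.18). Several of the 10, such as Kera, Fmod and Comp, also stand in the list of further matrix genes, though none is among the 52. Of the other marker lists, 9 of 12 endothelial and mural genes (median -0.17) were lower in JA16, beside 54.2% of all genes. So were 6 of 6 measured nerve and Schwann cell genes (median -0.60), 3 of 3 measured adipocyte genes (median -0.38) and 3 of 3 measured myofibroblast genes (median -0.10). Macrophage and leukocyte genes were lower for 9 of 12 with all pairs (median -0.14) and for 3 of 12 without pair 7 (median 0.058). Muscle fibre genes were lower for 2 of 8 (median 0.038), and for 6 of 8 with quantile normalization. Their part in the matrix values was not tested.

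The arrays fell into 2 sets by the log2 ratio of the 3′ to the 5′ control probe sets of beta-actin, a measure of RNA or labelling quality: 1.33 to 1.84 in samples 1 to 6 of both groups and 0.48 to 0.64 in samples 7 to 10. The same ratio of Gapdh did not separate them, at 0.21 to 0.41 and 0.18 to 0.32. The labels name no batch. Within samples 1 to 6 the median difference of the 48 genes was 0.019 with 20 lower (50.8% of all genes were), and within samples 7 to 10 it was -0.23 with 39 lower (54.9% of all genes). No gene of any kind passed the test within either set. Without pair 7, samples 8 to 10 had a median of -0.072 with 32 lower (52.9% of all genes). The difference between the sets passed the test for no gene of any kind (limma interaction term, adjusted p under 0.05). With pair 7 included, it was below 0 for 44 of the 48, against 50.4% of all genes. Its median over the 48 was -0.22 with pair 7 and -0.070 without it, beside -0.0019 and -0.0074 over all genes. An unadjusted p under 0.05 for this difference was reached by 3 of the 48 (6.25%, against 2.68% of all genes), namely Col5a1, Col6a3 and Col16a1. Without pair 7 it was reached by 0 of 48, against 1.79%. Postn, Dcn, Ogn, Lox and Col8a1 were lower in both sets. The log2 values were -0.64 and -0.91 for Postn, -0.20 and -0.16 for Dcn, and -0.34 and -0.37 for Ogn. They were -0.57 and -1.23 for Lox, and -0.28 and -1.01 for Col8a1. In samples 8 to 10, without pair 7, the values were -0.39 for Postn, -0.17 for Dcn, -0.18 for Ogn, -0.56 for Lox and -0.70 for Col8a1. These genes are named for their small p over the same samples, so the values in the sets are not a separate test.

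A second list of 113 other matrix genes was read from the same fit, of which 77 passed the intensity filter. None passed the test, 61 of the 77 had a lower value in JA16 (56 with quantile normalization and 48 with array medians set equal), and the median difference was -0.11 (-0.079 without pair 7). At an unadjusted p under 0.05, 10 of the 77 (13.0%) were lower and none was higher. Over all genes, 8.76% were lower at that level and 16.2% were lower or higher. Without pair 7, 7 of the 77 (9.09%) reached that level, against 14.5% of all genes. In that fit 54 of the 77 had a lower value, against 51.8% of all genes. The 4 with the smallest p were secreted proteins that bind cells or growth factors, and each was lower. Ccn1, a matricellular protein induced by TGF-beta and by stretch, ran from 987.5 to 3590.8 in saline (median 1810.9) and from 837.2 to 2949 in JA16 (median 1208.3), a difference of -0.47 (SE 0.14, limma p = 0.00432, adjusted p = 0.170) with 9 of 10 pairs lower. Ccn5, of the same family, ran from 43.6 to 484 in saline (median 135.15) and from 31.9 to 193.1 in JA16 (median 62.7), a difference of -0.84 (SE 0.26, limma p = 0.00559, adjusted p = 0.184).

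Tgfbi, named for its induction by TGF-beta, ran from 1752.5 to 3887.2 in saline (median 2366.8) and from 1328.7 to 3386.3 in JA16 (median 1559.7), a difference of -0.41 (SE 0.13, limma p = 0.00715, adjusted p = 0.191) with 9 of 10 pairs lower. Ccn2, connective tissue growth factor, ran from 1756.5 to 4136 in saline (median 2333.3) and from 933.5 to 2585.6 in JA16 (median 1974.4), a difference of -0.48 (SE 0.16, limma p = 0.0101, adjusted p = 0.199). The ranges overlapped for all 4, and without pair 7 the values were -0.36 for Ccn1, -0.63 for Ccn5, -0.31 for Tgfbi and -0.36 for Ccn2. The 12 further collagens measured had a median of -0.059 and the 7 further proteoglycans, all lower, a median of -0.36 (-0.19 without pair 7).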

How the data were processed

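RNA from 20 gastrocnemius samples was measured on Affymetrix mouse arrays. The authors deposited linear MAS5 intensities, per the submitters' processing notes, whose scaling target and masking the sources used here do not give. The arrays shared a mean of 500 once the lowest and highest 2% of values were left out. Of 45101 probe sets, 34945 had 1 gene, 932 several and 9160 none, and 64 were controls. Values at or below 0 (5 in all) were set to 0.1, log2 was taken, and probe sets with a mean of at least 5.65 (intensity 50.1) were kept. The brightest stood for its gene. The comparison used limma 3.58.1 under R 4.3.3 (intensity trend, two-sided, Benjamini-Hochberg over 11200 genes, threshold 0.05), with the replicate number as a block, since the comparison asked for pairs. The pairing was checked in the data: deviations from the group mean correlated at 0.377 to 0.786 between samples of equal number, and at a median of -0.11 between others. Samples of equal number also share an array set, while the others mix the sets, so this check cannot show pairing within a set. No array copied another (correlations 0.879 to 0.937). On simulated data, 60% of changes of 0.5 and 92% of changes of 1 log2 unit were recovered, with 10 false calls. The changed genes were drawn from all genes, with normal noise separate for each gene and no outlying sample or array set. The median SD of log2 values in saline was 0.50 for the 48 matrix genes and 0.41 over all genes. These shares are thus not the recovery for matrix genes in the real samples.

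Alternatives covered the block, scaling, filter, values near 0, probe set choice, left-out pairs, array sets and a control ratio. Genes given in full were the 6 largest positive and negative differences, 12 set genes, those whose sign turned without pair 7, and the 4 other matrix genes of smallest p. Members and lists were chosen with earlier results of these data known. Promoters are from RefSeq, and work used Python 3.11.15, pandas 2.3.3 and matplotlib 3.10.9.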

Additional observations from a re-analysis of the deposited data

Results flagged for a closer look

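In 13 of the 96 groups looked at (48 genes in 2 groups of 10 samples), the highest or lowest sample was set apart: its gap to the next sample, as a share of the whole range of log2 values, was above 0.466, the limit that chance passes in about 1 in 20 groups. The 13 groups belong to 10 genes, and in 10 of the 13 it was saline sample 7 that stood highest. All 96 groups come from the same 20 samples, so they are not separate chances. The share of groups past this limit over all genes was not taken, and saline sample 7 was the highest saline sample for 21.3% of all genes.

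Among collagens, the share was 0.673 for Col8a1, where saline sample 7 read 1613.7 and the next saline sample 241.0. It was 0.6 for Col14a1 (884.4 against 293.1), 0.565 for Col12a1 (1026.8 against 235.3) and 0.527 for Col16a1 (289.5 against 90.1). Among genes that act on fibrils or bind them, it was 0.689 for Postn (8497.8 against 282.4), 0.669 for Lox (4247.7 against 598.9), 0.576 for Fn1 (7610.1 against 3459.1) and 0.486 for Lum (1912.9 against 826.4). In the basement membrane it was 0.589 for Nid2 (477.9 against 289.1) and 0.538 for Lamb1 (1631.3 against 945.2).

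JA16 sample 7, which carries the same number, was set apart for 3 of these genes. The share was 0.617 for Postn (1514.1 against 170.7), 0.517 for Lum (1339.4 against 653.7) and 0.489 for Nid2 (374.0 against 272.4). The macrophage and leukocyte markers had a mean log2 intensity of 11.60 in saline sample 7 and 9.66 in JA16 sample 7, and their part in these values was not tested.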

How the results depend on the processing

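Limits come first from the samples: 10 per group, 1 of which (saline sample 7) moves the summary of the 48 matrix genes, and from the signal, since probe sets near background, such as those of Fbn2 and Plod2, were not tested. Over 23 alternatives the 48 genes gave 1096 values, of which 1003 kept their direction, 93 (in 28 genes) turned it and 0 passed the threshold, with the smallest adjusted p at 0.0843 (limma). None of the 28 was past the threshold to begin with, and the cause of these changes was not tested. In the counts over all 11200 genes, 31 passed with the replicate block. Without the block, which ignores the pairing, 4 did, with array medians centred 10, with the beta-actin ratio as a covariate 1, with saline sample 7 left out and no block 5, and 0 within each array set (samples 1 to 6, 7 to 10 or 8 to 10), where fewer samples were fitted. The lowest was 10 and the highest 51 with each pair left out in turn (51 without pair 1, 10 without pair 4, 11 without pair 6 and 14 without pair 7). The 34 matrix genes lower in JA16 became 22, and their median 0.015, with saline sample 7 left out and no block, and 20 in samples 1 to 6. With each pair left out the number ran from 26 (without pair 7) to 36, and their median from -0.13 to -0.011. The median of the other matrix genes ran from -0.14 to -0.079. No matrix gene passed the threshold without the block or with any pair left out. 

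The log2 differences that turned sign were the following. With array medians centred and the block kept, the values were 0.061 for Col6a3, 0.018 for Sparc, 0.068 for Loxl1, 0.045 for Serpinh1, 0.060 for P4ha2, 0.046 for Plod1, 0.047 for Lama4, 0.035 for Nid1 and 0.0043 for Mmp2. Quantile normalization gave 0.011 for Loxl1, 0.033 for P4ha2 and 0.011 for Plod1. Leaving out probe sets that can match several transcripts gave -0.084 for Col3a1 and -0.070 for Lamb1, and the mean of all probe sets of a gene gave -0.011 for Col5a1, -0.080 for Col5a2, 0.11 for Loxl1 and -0.10 for Lamb1. With the beta-actin ratio as covariate the values were -0.056 for Col5a1, -0.0089 for Col5a2, -0.0067 for Col18a1, -0.030 for Tnxb and -0.11 for P4ha1. Without saline sample 7 and without the block they were 0.086 for Col6a3, 0.071 for Col14a1, 0.12 for Col16a1, 0.017 for Eln, 0.053 for Lum, 0.038 for Fbln2, 0.095 for Loxl1, 0.10 for Serpinh1, 0.039 for P4ha2, 0.012 for Plod1, 0.042 for Lama4 and 0.023 for Nid1. Samples 1 to 6 alone gave 0.17 for Col6a3, 0.076 for Col14a1, 0.36 for Col16a1, 0.018 for Fbln2, 0.12 for Loxl1, 0.15 for Serpinh1, 0.014 for P4ha2, 0.057 for P3h1, 0.082 for Pcolce, 0.033 for Lama4, 0.0017 for Nid1, 0.040 for Mmp2, 0.0083 for Mfap5 and 0.019 for Dpt. Samples 7 to 10 alone gave -0.39 for Col5a1, -0.049 for Col5a2, -0.015 for Col6a1, -0.15 for Col18a1, 0.010 for Plod1, -0.11 for Lamb1 and -0.010 for Lama2, and samples 8 to 10 gave -0.11 for Col5a1, -0.069 for Col18a1, 0.10 for Loxl1, 0.0078 for Serpinh1, 0.0086 for P4ha2, 0.082 for Plod1, -0.075 for Lamb1, -0.041 for Lama2, 0.050 for Lama4 and 0.40 for Timp1. With each pair left out in turn, the values that crossed 0 ran from -0.060 to 0.17 for Col5a1, -0.065 to 0.21 for Col5a2, -0.062 to 0.065 for Col6a3, -0.30 to 0.00059 for Col14a1, -0.23 to 0.12 for Col16a1, -0.051 to 0.11 for Loxl1, -0.13 to 0.10 for Serpinh1, -0.053 to 0.025 for P4ha2, -0.16 to 0.021 for P3h1, -0.076 to 0.023 for Plod1, -0.15 to 0.0020 for Pcolce and -0.071 to 0.039 for Lama4.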
